A study of Rattus norvegicus with 11 samples.

Results

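Voltage-gated sodium channels, voltage-gated calcium channels, chloride channels and the calcium release channels of the endoplasmic reticulum were described in rat hippocampus on a ketogenic diet and on a control diet. The members were all probe sets, groups of short probes for 1 transcript, whose single gene symbol in the array annotation began with Scn and a digit, Cacna, Cacnb, Cacng, Clcn, Clic, Itpr or Ryr. They were 68 probe sets for 52 genes, out of 15923 probe sets on the array with 10412 named genes. The rule used symbols and no measured value, though earlier results of these data were known when the members were chosen. Total RNA was measured on 11 arrays, 5 from rats fed a ketogenic diet, a regimen of much fat and little carbohydrate, and 6 from rats fed a control diet. Per the labels the ketogenic diet prevents epileptic seizures. The labels name neither strain, age, sex nor length of feeding. Nor do they say whether every array stands for its own rat, so each p-value reflects the spread between arrays, which may be technical.

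Sodium channels carry the rising phase of the action potential, and each is a large pore-forming alpha subunit with small beta subunits that set its gating and its place in the membrane. Calcium channels open on depolarization and admit the calcium that triggers transmitter release and gene regulation. Their pore subunit works with an intracellular beta subunit and an extracellular alpha2-delta subunit. Chloride channels of the CLC family steady the membrane potential or exchange chloride for protons in endosomes, and inositol trisphosphate and ryanodine receptors release calcium from internal stores. Several of these proteins are targets of anticonvulsant drugs, and mutations in some of their genes cause inherited epilepsies.

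All values below are log2 of the array signal after quantile normalization between arrays, unless deposited signals are named. Differences are ketogenic minus control. Probe sets with a mean below 5.17 on that scale, the lowest 25%, were not tested, and 56 of the 68 member probe sets, for 43 of the 52 genes, were tested. A probe set with an adjusted p under 0.05 (limma, adjusted by Benjamini-Hochberg across the 11899 tested) is described as called, and rose or fell is written only of those. Different probe sets respond to their transcripts with different strength, so levels are compared between arrays and never between genes.

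Of the 56 tested member probe sets, 4 passed as higher on the ketogenic diet and 3 as lower. These 7 are 12.5% of those tested, against 16.5% of all tested probe sets (8.62% higher and 7.87% lower). Of the 7, Cacnb1 and Scn4a had passed the filter on dim probe sets only through the diet in which they are high. Cacnb1, Cacng8, Scn1a and Scn2a rose, and Scn4a, Cacna1a and Cacng4 fell. Their differences were 0.30 to 1.70 higher and 0.44 to 1.28 lower. The median difference over the tested members was 0.019, with 29 positive and 27 negative, beside -0.004 over all tested probe sets. An unadjusted p under 0.05 was found for 21 of the 56 members and for 33.3% of all tested probe sets. Diets did not overlap in 4 members, 1 of them higher, against 6.99% of all tested probe sets. On the deposited scale 5 members were higher and 10 lower (26.8%, against 23.6% of all tested probe sets). After centring arrays at their 75th percentile 7 were higher and 8 lower (26.8%, against 22.9%), so the split of calls by direction depended on the scaling (57.1% of calls higher, against 33.3% and 46.7%). All 7 members were called under both of those scalings too.

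Measures of whole arrays also differed between the diets. The log2 ratio of 3 prime to 5 prime control probe sets, a measure that goes up with RNA degradation, was 0.127 to 0.344 on ketogenic and -0.0684 to 0.148 on control arrays for Gapdh (exact permutation test, two-sided, p = 0.00649, adjusted 0.00649 over 4 measures). For actin it was 0.755 to 0.985 on ketogenic and 0.487 to 0.75 on control arrays (exact p = 0.00216, the smallest that 5 against 6 arrays allow, adjusted 0.00433). With both ratios as covariates 0 of the 56 members and 6 of 11899 probe sets were called, and the 7 member differences kept their sign. Mean spike-in levels, of RNA added to the sample during processing, were 8.51 to 8.91 on ketogenic and 8.24 to 8.54 on control arrays (exact p = 0.00649, adjusted 0.00649). With that level as a covariate 6 members were called higher and 2 lower, 4 of them among the 7 (14.3%, against 11.4% of all tested probe sets). Each marker sum in this report adds 1 probe set per gene, its brightest, on the linear normalized scale, whether or not it was tested. Red blood cell markers summed to 295 to 385 on ketogenic and 1170 to 1620 on control arrays without overlap, and 4 of their 5 probe sets were called lower. Choroid plexus markers were negative in 8 of 8 tested probe sets and meningeal ones in 10 of 10, with 3 and 1 called lower (7.87% over the array). Among these markers Alas2 (ketogenic mean 4.95) and Cldn2 (4.98), both called lower, were tested only through their control values. So was 1 Ogn probe set (4.62), which was not called. The part of red blood, choroid plexus and meningeal cells in the channel results was not tested. Median deposited signals were 79.9 to 87.9 on ketogenic and 89.2 to 94.2 on control arrays, and a batch cannot be told apart from the diet.

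Ketogenic replicate 3, whose title carries a letter that the other titles lack, lay nearest to the control mean among the ketogenic arrays in 28 of the 56 members (50%), as it did in 42.8% of all tested probe sets. Without it 8 members were called higher and 10 lower, or 32.1% of 56 (26.6% of all tested probe sets). Without control replicate 3 the members called were 4 in all (7.27% of those tested, against 10.5% of all tested probe sets). Without ketogenic replicate 4 they were 3 (5.45%, against 6.7%). All 9 measured marker genes of hippocampal and other neurons were above the testing level. So were all 7 of oligodendrocytes and all 4 of red blood cells, and passing that level does not identify the tissue. Of the 15 neuron probe sets 4 were called (26.7%, against 16.5% over the array). They were Camk2a (1.34) and Grik4 (1.04) higher and Slc17a7 (-0.43) and Stmn2 (-0.22) lower. The other probe sets of Camk2a, Slc17a7 and Stmn2 were not called. The sum over the 9 genes was 9580 to 10900 on ketogenic and 9240 to 9970 on control arrays. Camk2a entered it with its called probe set alone, which averaged 10.65 on ketogenic and 9.31 on control arrays. In whole tissue, fewer cells of a type and less RNA per cell cannot be told apart.

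**Figure D1:**
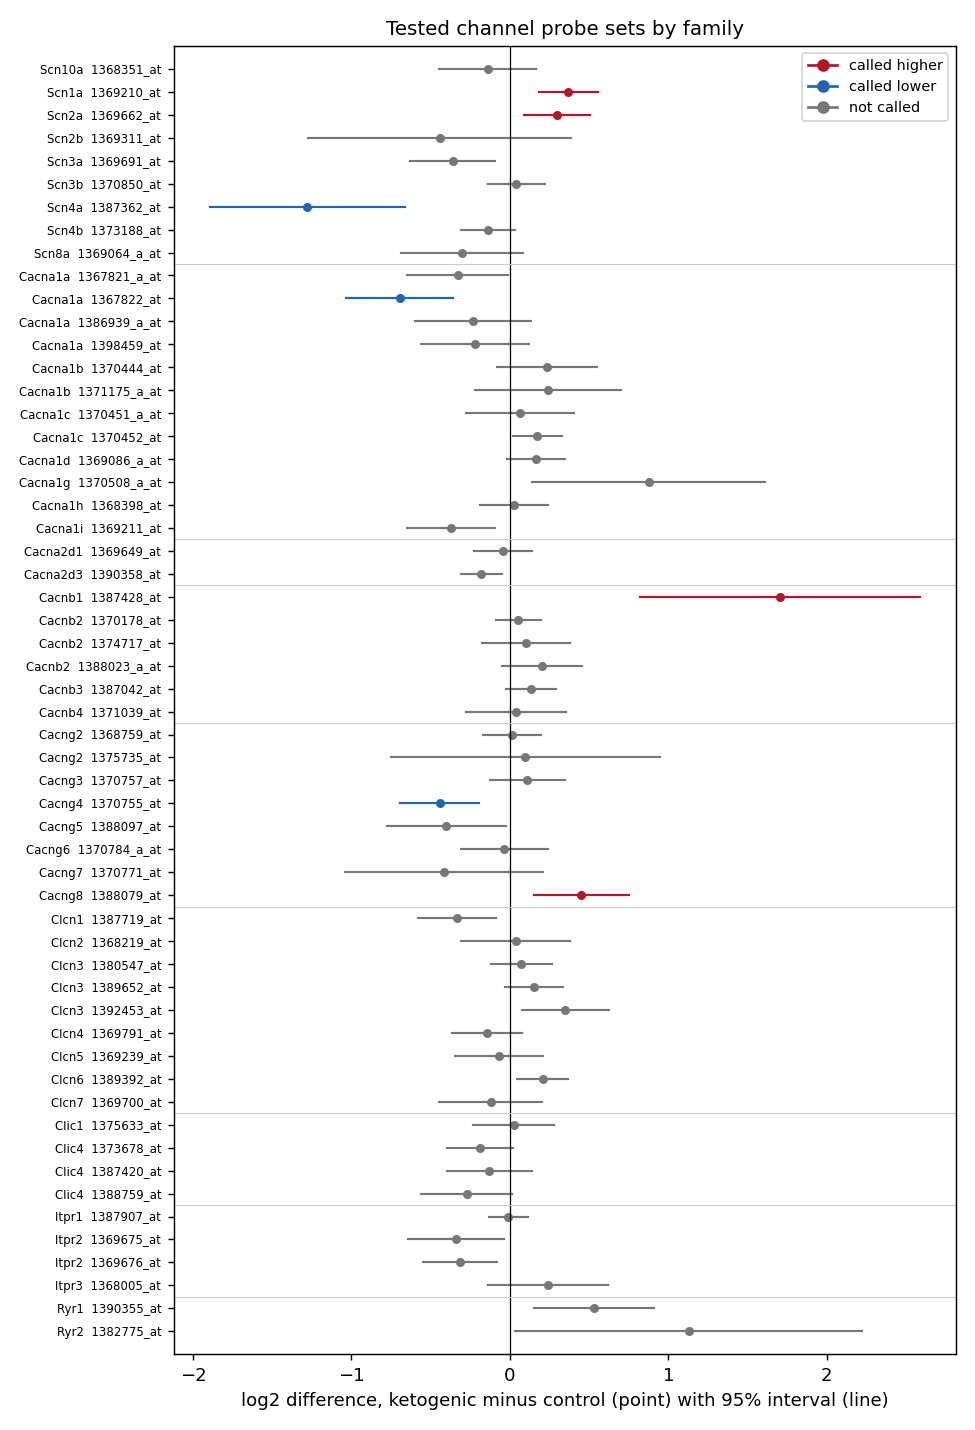
Log2 difference, ketogenic minus control (horizontal axis), of the 56 tested channel probe sets, grouped by family from sodium channels at the top to ryanodine receptors at the bottom. Points are differences and lines their 95% intervals, with 4 called higher in red and 3 called lower in blue. Most points lie near 0, and Cacnb1 and Scn4a lie farthest from it among the called ones.

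Among the alpha subunits of sodium channels, Scn1a and Scn2a rose and Scn4a fell, which makes 3 called of 9 tested sodium channel probe sets (16.5% over the array), Scn4a among them through its control values alone. Scn1a encodes Nav1.1, the main sodium channel of fast-spiking inhibitory neurons, and its loss causes Dravet syndrome in people. Ketogenic arrays 1 to 5 gave 7.88, 7.84, 7.66, 7.78 and 7.74 for Scn1a, and control arrays lay between 7.22 and 7.71 with a median of 7.37. Only ketogenic replicate 3 overlapped the controls. The difference was 0.37 (SE 0.09, adjusted p = 0.0159, limma), or 1.29-fold, and deposited signals were 201 to 232 on ketogenic and 153 to 212 on control arrays. Scn1a was called in all 11 fits that left out 1 array, at 0.33 to 0.43. Adding the 3 prime to 5 prime ratios gave 0.20 (adjusted p = 0.905). Adding the spike-in level gave 0.32 (adjusted p = 0.151).

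Markers of inhibitory neurons were set beside Scn1a. Of 8 tested probe sets for 7 such genes, 0 were called, and 2 had an unadjusted p under 0.05. Pvalb, the marker of fast-spiking interneurons, was at 0.49 (adjusted p = 0.0542), Sst at -0.16 and Gad2 at -0.09. Gad1 was at -0.38 (adjusted p = 0.0706) in 1 probe set and at 0.10 in the other. Summed interneuron marker signals were 2120 to 2500 on ketogenic and 2120 to 2330 on control arrays, and their part in the Scn1a result was not tested.

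Scn2a encodes Nav1.2, a channel of excitatory neurons and of axons early in development. Values for Scn2a on ketogenic arrays 1 to 5 were 9.26, 9.01, 8.83, 9.11 and 8.93, against 8.43 to 8.96 with a median of 8.70 on control arrays. Ketogenic replicates 3 and 5 lay within the control range and the other 3 above it. It rose by 0.30 (SE 0.10, adjusted p = 0.0482, limma), or 1.23-fold. Of the 11 fits lacking 1 array, 3 kept the call (those lacking control array 5, control array 6 or ketogenic array 3), and all 11 lay between 0.24 and 0.35. Nor was Scn2a called with no filter on dim probe sets, with no variance trend, with the replicate number as a block (adjusted p = 0.0507) or with the 3 prime to 5 prime ratios (0.14, adjusted p = 0.951).

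Scn3a, the embryonic form of the brain sodium channel, had the opposite sign. Ketogenic arrays 1 to 5 were at 6.85, 7.18, 7.33, 6.76 and 6.68, and controls at 7.03 to 7.52 with a median of 7.35. The groups overlapped, and the difference was -0.36 (SE 0.13, adjusted p = 0.063, 95% interval -0.63 to -0.09). It was called under both other scalings, with array weights, and without control replicate 4 or ketogenic replicate 3. In the RefSeq gene table Scn3a and Scn2a are neighbours on chromosome 3 with 0 protein-coding genes between them, and Scn1a follows after 4 others, so genes of 1 cluster had differences of both signs. Scn9a and Scn7a, next in that cluster, were below the testing level.

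Scn8a, which encodes Nav1.6 of the axon initial segment and the nodes of mature neurons, was at -0.30 with an interval of -0.69 to 0.08 (adjusted p = 0.256). Ketogenic values of Scn8a ran from 5.38 to 6.10, within the control range of 5.51 to 6.56 except for ketogenic replicate 3. The beta subunit gene Scn3b was at 0.04 (interval -0.14 to 0.22) and Scn4b at -0.14 (interval -0.31 to 0.03). Scn2b was at -0.44 with an interval of -1.27 to 0.39, and ketogenic replicate 1 lay at 3.22 and the other 4 between 5.48 and 6.28. Without that array Scn2b was at 0.06. Scn10a, known from sensory neurons, was at -0.14, and Scn11a, of the same kind, was not tested.

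Scn4a, the sodium channel of skeletal muscle, fell, at values close to the dim end of the array. Ketogenic arrays 1 to 5 gave 4.88, 4.79, 5.07, 3.79 and 3.95, and control arrays 4.99 to 6.49 with a median of 5.71. Control replicate 1 was the lowest control and lay under ketogenic replicate 3. The difference was -1.28 (SE 0.29, adjusted p = 0.0126, limma), a 2.42-fold lower signal, with deposited signals of 12.9 to 31.7 on ketogenic and 34.5 to 90.8 on control arrays. Its ketogenic mean of 4.50 was below the testing level, so Scn4a was tested only through its control values. In 5 of the 11 fits with 1 array left out its mean was below the level and it was not tested, and in the other 6 it was called.

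Muscle markers were compared because Scn4a is known from muscle. Of 12 genes on the array from that list, 5 had a tested probe set. Of the 9 tested probe sets 1 was called, a lower one for Myh1 at -0.52, while the 4 others for Myh1 were not called and lay between -0.24 and 0.07. Ckm was at -0.12 (adjusted p = 0.596) and Acta1 at 0.14. Summed signals of the 12 genes were 1280 to 2020 on ketogenic and 1610 to 1960 on control arrays, and 7 of them, among them Mb, Myh2 and Tnnt3, were below the testing level. These sums mostly followed Myh1, 1 of whose probe sets averaged 10.18 on ketogenic and 10.43 on control arrays. Acta1 averaged 6.82 and 6.68, and Ckm 6.19 and 6.31. The part of muscle markers in the Scn4a result was not tested.

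**Figure D2:**
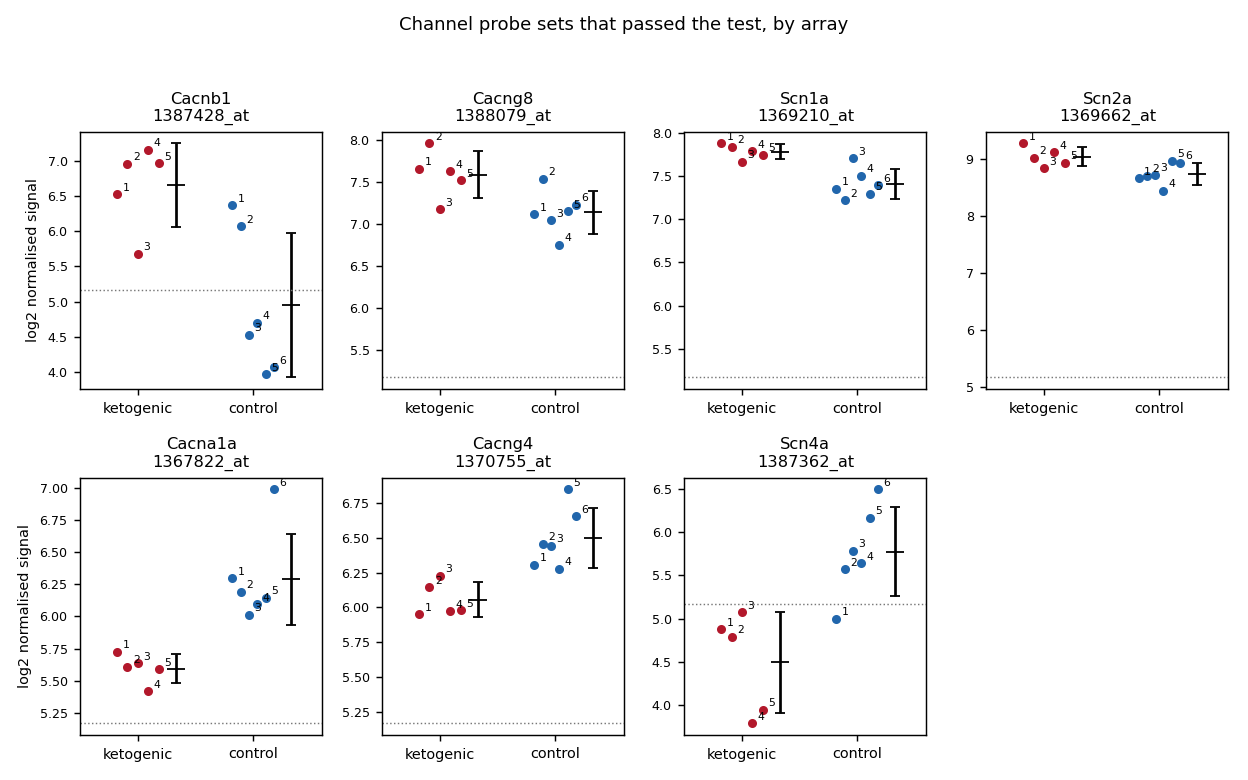
Log2 normalised signal (vertical axis, a separate scale in each panel) of the 7 called channel probe sets, with ketogenic arrays in red left of control arrays in blue, each point numbered by replicate. Black bars are means with SD, and the dotted line is the testing level of 5.17. Cacna1a and Cacng4 show no overlap, while Cacnb1 has control replicates 1 and 2 among the ketogenic values.

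A called gene of each direction is shown by the sequence at its start. For Scn2a, which rose, and Cacna1a, which fell, RefSeq promoter windows of build GRCr8, 250 bases before to 50 after the annotated start, are shown 5′ to 3′ with matches to 4 short motifs in capitals. Windows were found for 4 of the 7 called genes, these and Cacng8 and Scn4a.
Scn2a, chr3:70710706-70711005, plus strand: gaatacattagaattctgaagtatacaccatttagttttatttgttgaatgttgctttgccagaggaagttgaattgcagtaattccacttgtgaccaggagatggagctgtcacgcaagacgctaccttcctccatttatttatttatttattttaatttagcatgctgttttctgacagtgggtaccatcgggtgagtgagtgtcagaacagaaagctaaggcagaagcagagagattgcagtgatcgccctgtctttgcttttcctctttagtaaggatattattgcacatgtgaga
Cacna1a, chr19:40650419-40650718, minus strand: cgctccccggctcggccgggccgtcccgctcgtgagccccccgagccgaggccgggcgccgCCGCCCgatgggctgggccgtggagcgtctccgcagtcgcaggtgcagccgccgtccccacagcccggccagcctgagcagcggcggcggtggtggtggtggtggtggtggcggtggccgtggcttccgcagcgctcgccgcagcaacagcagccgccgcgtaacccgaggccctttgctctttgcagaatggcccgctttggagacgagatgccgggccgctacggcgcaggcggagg
Both strands were searched. The core letters of the cyclic AMP response element, TGACGT, occur in 7.94% of 33469 rat promoter windows of 300 bases. The GC box, GGGCGG, occurs in 33.1% of those windows. The E-box, CACGTG, occurs in 6.42% of them. The TATA box, TATAAA, occurs in 14.2% of the same windows. The Cacna1a window held 1 GC box and the other 3 windows held 0 of the 4 motifs. GC content was 39.3% for Scn2a and 76% for Cacna1a, with 4 and 41 CpG sites. A match is a description of these letters and says nothing about the binding of a factor.

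Of the pore subunits of calcium channels, Cacna1a fell in 1 of its 4 probe sets, and 0 of the other 8 tested probe sets were called by limma, with 3 at an unadjusted p under 0.05 (33.3% over the array). Cacna1a encodes Cav2.1, the P/Q-type channel that drives fast transmitter release, and its mutations cause ataxia, migraine and absence seizures. In the called probe set, ketogenic arrays 1 to 5 gave 5.72, 5.61, 5.63, 5.42 and 5.59, and control arrays 6.01 to 6.99 with a median of 6.17. The groups did not overlap, and control replicate 6 lay well above the other controls. The difference was -0.70 (SE 0.16, adjusted p = 0.0128, limma), a 1.62-fold lower signal, with deposited signals of 36.4 to 52 on ketogenic and 69 to 127 on control arrays. It was called in all 11 fits with 1 array left out, at -0.75 to -0.55, and at -0.55 without control replicate 6. Adding the 3 prime to 5 prime ratios gave -1.14 (adjusted p = 0.44). Adding the spike-in level gave -0.62 (adjusted p = 0.127).

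The 3 other probe sets of Cacna1a had the same sign and overlapped between the diets. They were at -0.33 (adjusted p = 0.138), -0.23 (adjusted p = 0.361) and -0.22 (adjusted p = 0.352). In a fit with 1 mean value per gene, Cacna1a was called at -0.37 (adjusted p = 0.0287). In 8 of 8 member genes with several tested probe sets, 21 probe sets in all, every probe set of the gene had the same sign. Over all 1207 genes with several tested probe sets this held in 52.7%, and in 56.2% of those with 2, 35.8% with 3 and 24.1% with 4. On the deposited scale the sign was not shared in Cacna1c, and after 75th percentile centring neither in Cacna1c nor in Cacng2. Adding the 3 prime to 5 prime ratios turned some but not all probe sets of Cacna1b, Cacna1c, Cacnb2, Cacng2, Clcn3 and Clic4. Adding the spike-in level split the signs of Cacna1a and Cacng2, and array weights those of Cacng2. Some fits with 1 array left out split Cacna1c or Cacng2. The shared sign therefore depended on the setting in most of these genes.

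Cacna1b, the N-type channel gene, which also serves transmitter release, was at 0.24 in both of its probe sets (adjusted p = 0.279 and 0.454). In the first of them there were ketogenic values of 7.67 to 8.43 and control values of 7.43 to 8.15. Among L-type channels, which couple activity to transcription, Cacna1c had 1 probe set without overlap between the diets. That probe set gave 7.36, 7.28, 7.15, 7.22 and 7.17 on ketogenic arrays and 6.98 to 7.15 with a median of 7.04 on control arrays. The lowest ketogenic array and the highest control array differed only in the third decimal. The difference of 0.17 (SE 0.07, adjusted p = 0.111) was not called, and the second probe set was at 0.06. Cacna1d was at 0.17 (interval -0.02 to 0.35), and its 2 other probe sets, with Cacna1e, Cacna1f and Cacna1s, were not tested. In 1 of those Cacna1d probe sets ketogenic arrays were at 4.77 to 5.36, against 3.07 in control replicate 6 and 5.34 to 5.88 in the other controls. Without that control it was tested and called lower, at -0.61 (adjusted p = 0.028). Its ketogenic mean of 5.06 was below the testing level, so it entered that fit only through its control values.

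T-type channels open near the resting potential and are the targets of ethosuximide, a drug for absence seizures. Cacna1g gave 5.97, 6.35, 4.62, 6.44 and 5.79 on ketogenic arrays 1 to 5 and 4.10 to 5.56 with a median of 5.21 on control arrays. Every ketogenic array but replicate 3 lay above all controls, and the difference was 0.88 (SE 0.35, adjusted p = 0.0927, interval 0.14 to 1.61). Its control mean of 4.96 was below the testing level, so it was tested only through its ketogenic values. Cacna1g was called with array weights and without ketogenic replicate 3, where the difference was 1.17. Cacna1i was at -0.37 (SE 0.13, adjusted p = 0.0643), with ketogenic values of 5.96 to 6.80 and control values of 6.64 to 6.91, and it was called under both other scalings, with array weights and without ketogenic replicate 2 or 3. Cacna1h was at 0.03 with an interval of -0.19 to 0.24.

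The alpha2-delta subunits carry calcium channels to the surface, and Cacna2d1 encodes the binding site of gabapentin. Cacna2d1 was at -0.04, with an interval of -0.22 to 0.14. Cacna2d3 gave 8.57, 8.67, 8.79, 8.51 and 8.60 on ketogenic arrays and 8.75 to 8.90 with a median of 8.79 on control arrays. Only ketogenic replicate 3 overlapped, and the difference of -0.18 (SE 0.06, adjusted p = 0.0599) was called without that array, with array weights and with no filter.

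Beta subunits bind the pore subunit inside the cell and bring it to the membrane. All 6 tested probe sets of this family had a positive difference, of which 1 was called, beside 5860 positive among 11899 over the array. Cacnb1 rose, with 6.52, 6.95, 5.68, 7.15 and 6.96 on ketogenic arrays 1 to 5 against 3.97 to 6.36 with a median of 4.61 on control arrays. Control replicates 1 and 2, at 6.36 and 6.07, lay above ketogenic replicate 3, and the other 4 controls between 3.97 and 4.70 lay below every ketogenic array. The difference was 1.70 (SE 0.42, adjusted p = 0.0172, limma), or 3.26-fold, with deposited signals of 49.7 to 135 on ketogenic and 16.3 to 85.7 on control arrays. Its control mean of 4.95 was below the testing level, so it was tested only through its ketogenic values. Cacnb1 was called in 10 of 11 fits with 1 array left out, at 1.51 to 1.99, and had an adjusted p of 0.0518 without ketogenic replicate 4. With no filter on dim probe sets the adjusted p was 0.0535, and adding the 3 prime to 5 prime ratios gave 1.38 (adjusted p = 0.856).

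Cacnb4, whose loss causes seizures in lethargic mice, was at 0.04 with an interval of -0.28 to 0.35. Ketogenic values for Cacnb4 were 5.23 to 5.71 and control values 5.15 to 5.70. Cacnb3 was at 0.13 (interval -0.02 to 0.29), and the 3 probe sets of Cacnb2 were at 0.05, 0.10 and 0.20. The sign of Cacnb4 was negative on the deposited scale (-0.15) and after 75th percentile centring (-0.12), so the family's shared sign did not hold under those scalings.

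The gamma family is named after a calcium channel subunit of muscle, but most of its brain members are known as partners of AMPA-type glutamate receptors (TARPs). Cacng8, or TARP gamma-8, is abundant in hippocampus, and it rose. Ketogenic arrays 1 to 5 gave 7.66, 7.96, 7.17, 7.62 and 7.52, and control arrays 6.75 to 7.53 with a median of 7.13. Ketogenic replicates 3 and 5 lay within the control range. The difference was 0.45 (SE 0.14, adjusted p = 0.0417, limma), or 1.37-fold, and 3 of the 11 fits lacking 1 array kept the call (those lacking control array 2, control array 6 or ketogenic array 3). All 11 lay between 0.36 and 0.56. Adding the spike-in level gave 0.93 (adjusted p = 0.00618). Adding the 3 prime to 5 prime ratios gave 0.16 (adjusted p = 0.962). Nor was Cacng8 called with no filter on dim probe sets (adjusted p = 0.0858) or with no variance trend (adjusted p = 0.0604).

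Cacng4, or TARP gamma-4, fell. Its values on ketogenic arrays 1 to 5 were 5.95, 6.14, 6.23, 5.97 and 5.98, against 6.28 to 6.85 with a median of 6.45 on control arrays. No ketogenic array reached the lowest control. The difference was -0.44 (SE 0.12, adjusted p = 0.0231, limma), a 1.36-fold lower signal. Of the 11 fits with 1 array left out, those without ketogenic replicates 1 and 4 lost the call, with an adjusted p of 0.051 and 0.0602. Nor was Cacng4 called with the 3 prime to 5 prime ratios (-0.32, adjusted p = 0.895) or the spike-in level (-0.43, adjusted p = 0.145). The replicate number as a block gave an adjusted p of 0.0517.

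In the RefSeq gene table Cacng4 lies between Cacng1 and Cacng5 on chromosome 10, and Cacng8 between Cacng6 and Cacng7 on chromosome 1, with 0 protein-coding genes between neighbours. Cacng5 was at -0.40 (SE 0.18, adjusted p = 0.127) with ketogenic replicate 3 at 5.96 above all controls and the other 4 below them, and Cacng1 was not tested. Beside Cacng8, Cacng7 was at -0.41 (interval -1.04 to 0.21) and Cacng6 at -0.04. Cacng2, or stargazin, whose loss gives stargazer mice absence seizures, was at 0.01 with an interval of -0.17 to 0.19 in 1 probe set. The second had ketogenic replicate 3 at 3.85 and the other ketogenic arrays at 6.21 to 6.51, against 4.96 to 6.30 on control arrays, and the difference was 0.10 with a wide interval of -0.75 to 0.95. Cacng3 was at 0.11.

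**Figure D3:**
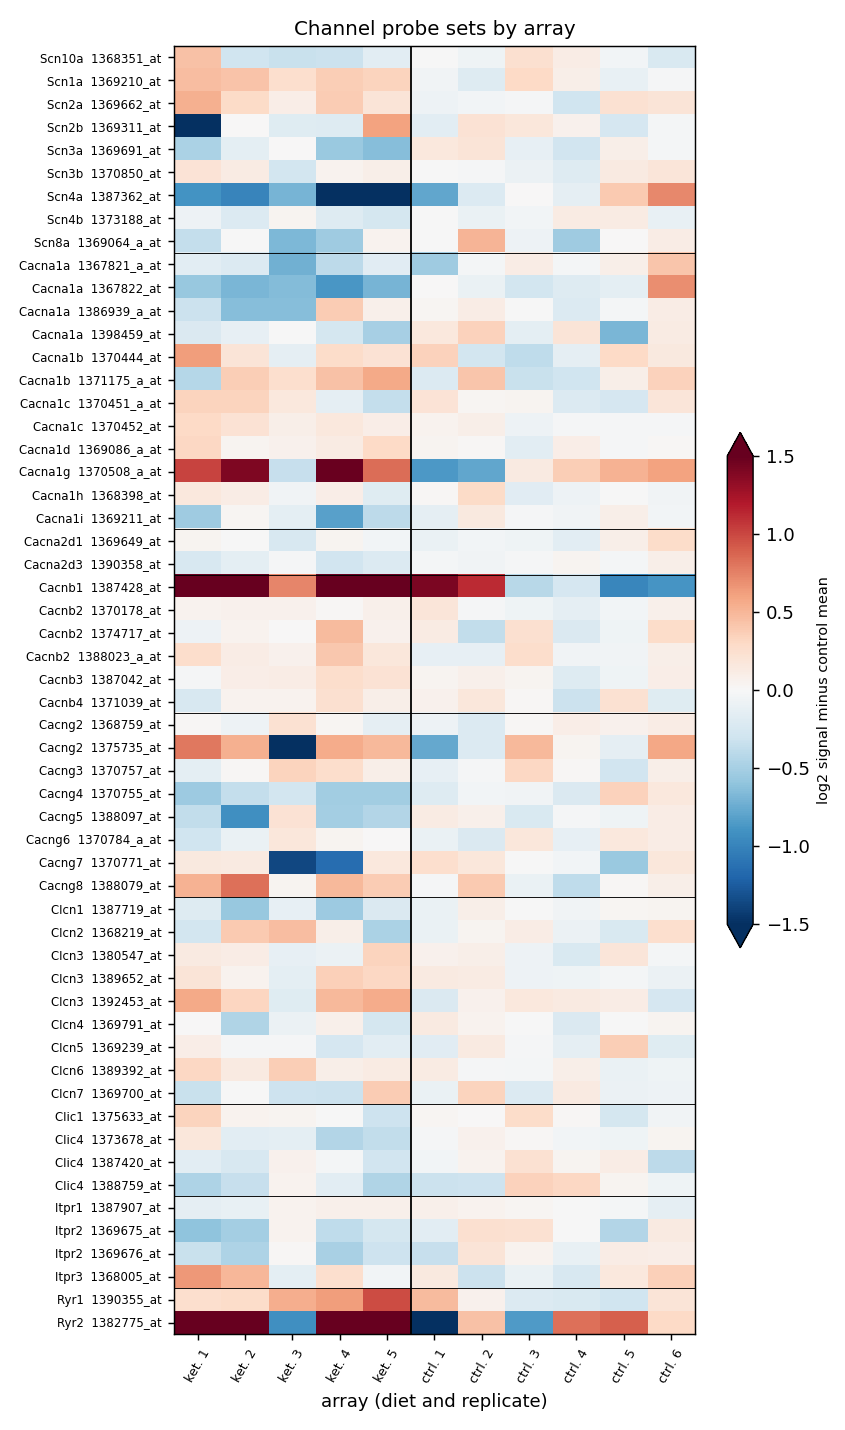
Each of the 56 tested channel probe sets (rows, by family) on each array (columns, 5 ketogenic arrays left of 6 control arrays), coloured by its log2 signal minus the control mean, with the scale ending at 1.5 in either direction. Cacnb1, Ryr2 and Cacna1g are red on ketogenic arrays 1, 2, 4 and 5 and a paler or blue cell on ketogenic replicate 3.

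Of the CLC chloride channels 0 of 9 tested probe sets were called by limma, and 3 had an unadjusted p under 0.05, a share like the 33.3% over the array. Clcn1, the chloride channel of skeletal muscle that is also transcribed in brain, gave 5.97, 5.59, 6.04, 5.61 and 5.94 on ketogenic arrays and 6.07 to 6.25 with a median of 6.18 on control arrays. The groups did not overlap, and the difference was -0.33 (SE 0.11, adjusted p = 0.0609), which was called under both other scalings. Clcn3, an exchanger of synaptic vesicles and endosomes whose loss destroys the hippocampus in mice, had 3 positive probe sets at 0.35 (adjusted p = 0.0757), 0.15 and 0.07. In the first of them ketogenic arrays gave 8.39, 8.14, 7.64, 8.31 and 8.38, and control arrays 7.57 to 7.98 with a median of 7.91. All ketogenic arrays but replicate 3 were above the controls, and without that array the probe set was called.

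Clcn6, of late endosomes in neurons, gave 7.90 to 8.18 on ketogenic arrays and 7.71 to 7.93 on control arrays, at 0.21 (SE 0.08, adjusted p = 0.0719). Clcn2, a plasma membrane channel that opens on hyperpolarization, was at 0.04 with an interval of -0.30 to 0.38. The endosomal exchangers Clcn4 and Clcn5 and the lysosomal Clcn7 were at -0.14, -0.07 and -0.12, with intervals that all included 0. Among the CLIC genes, whose small proteins exist in soluble and membrane forms, 0 of 4 tested probe sets were called by limma, and 0 had an unadjusted p under 0.05. Clic4 had 3 negative probe sets at -0.27, -0.19 and -0.13, Clic1 was at 0.03, and Clic3 and Clic5 were not tested. Of 9 probe sets for vascular and smooth muscle markers 8 were negative and 1 was called, with summed signals of 815 to 1080 on ketogenic and 1020 to 1170 on control arrays, and their part in the Clic4 values was not tested.

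Among calcium release channels 0 of 6 tested probe sets were called by limma, and 4 had an unadjusted p under 0.05 (33.3% over the array). Itpr1, the main inositol trisphosphate receptor of neurons, averaged 10.12 ± 0.10 on ketogenic and 10.12 ± 0.07 on control arrays (SD, n = 5 and 6), a difference of -0.01 with an interval of -0.13 to 0.11. Itpr2, which releases calcium in astrocytes, was lower in both probe sets by values that did not pass, -0.34 (adjusted p = 0.109) and -0.31 (adjusted p = 0.0648). In the second of them ketogenic arrays gave 7.20, 7.07, 7.54, 7.04 and 7.22, and control arrays 7.19 to 7.72 with a median of 7.61. Both probe sets were called under both other scalings, with array weights and without ketogenic replicate 3. Itpr3 was at 0.24 with an interval of -0.14 to 0.62.

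Astrocyte markers are given beside Itpr2. Of 13 tested probe sets for 6 of these genes, 9 were negative and 3 were called, all lower (7.87% were called lower over the array). They were Gfap at -0.39 (adjusted p = 0.011), Aqp4 at -0.33 (adjusted p = 0.00969) and Slc1a3 at -0.29 (adjusted p = 0.0427). The other probe sets of Aqp4 were at -0.27 and -0.14 and those of Slc1a3 at -0.25 and 0.23, none of them called. Gja1 was at 0.12, 0.005 and -0.35, Slc1a2 at -0.13 and -0.31 and Aldoc at 0.03, also not called. Summed astrocyte marker signals overlapped, at 7100 to 8310 on ketogenic and 7500 to 8180 on control arrays, and their part in the Itpr2 values was not tested.

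Ryanodine receptors release calcium in response to calcium, and Ryr2 is the main form in brain and heart. Ryr2 gave 6.65, 6.67, 4.07, 6.65 and 6.52 on ketogenic arrays 1 to 5 and 3.37 to 5.88 with a median of 5.36 on control arrays. Ketogenic replicate 3 lay among the controls and the other 4 lay above all of them. The difference of 1.13 (SE 0.52, adjusted p = 0.141, interval 0.03 to 2.23) was not called, and without ketogenic replicate 3 it was 1.63 and called. Ryr2 was tested only through its ketogenic values, since its control mean was 4.98. Ryr1, the form of skeletal muscle that is also found in neurons, gave 5.64, 5.66, 5.93, 6.02 and 6.36 on ketogenic arrays and 5.09 to 5.86 with a median of 5.32 on control arrays. Its difference of 0.53 (SE 0.18) missed the threshold at an adjusted p of 0.0517 and passed it with no variance trend, with robust variance, with array weights, without control replicate 1 and with 1 mean value per gene (adjusted p = 0.0492).

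**Figure D4:**
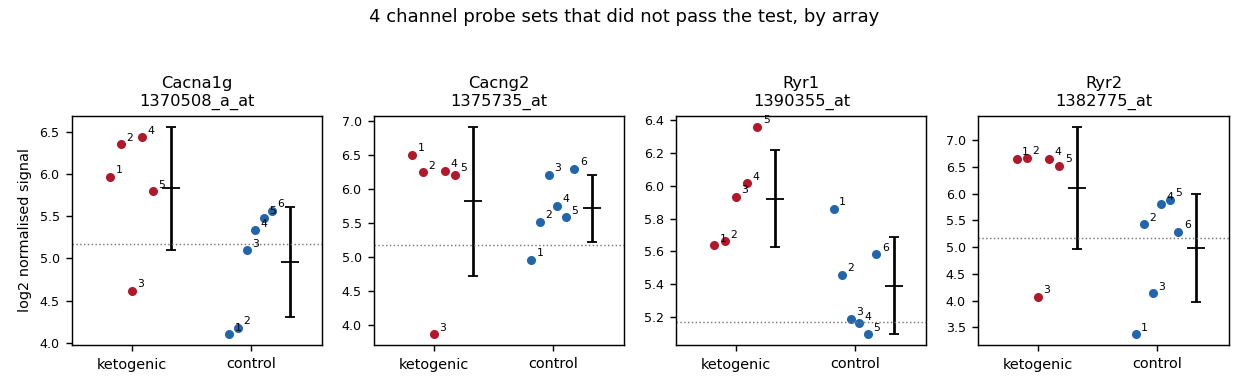
Log2 normalised signal (vertical axis) of 4 channel probe sets that were not called, chosen after their values were seen for the position of ketogenic replicate 3 or an adjusted p near the threshold. Ketogenic arrays (red) stand left of control arrays (blue), points are numbered by replicate, black bars are means with SD and the dotted line is the testing level of 5.17. In Ryr2, Cacna1g and Cacng2 ketogenic replicate 3 lies below the other 4 ketogenic arrays, and in Ryr1 it does not.

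The 12 member probe sets below the testing level were those for Scn7a, Scn9a, Scn11a, Cacna1e, Cacna1f, Cacna1s, Cacng1, Clic3 and Clic5, with 2 for Cacna1d and 1 for Cacna1i. Cacna1s, the skeletal muscle L-type channel, was at the floor of 2.33 on all 5 ketogenic arrays and at 2.33 to 2.79 on control arrays. Scn9a and Scn11a, known from pain-sensing neurons, stayed below 4 on every array. A dim signal is not evidence that a transcript is absent, since no detection call was used here. Besides Scn4a, Cacnb1, Cacna1g and Ryr2, the second Cacna1b probe set and Cacng7 were tested through 1 diet only in the main fit.

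A list of 107 genes held partners of these channels and other sodium, calcium or chloride channels, and 73 of the genes had 96 tested probe sets. Partner here means listed as such, and binding to a channel is not established for every gene. Of these 9 were called higher and 9 lower (18.8%, beside 16.5% of all tested probe sets), with a median difference of -0.02. Among the genes listed as sodium channel partners 4 of 22 probe sets rose and 2 fell (27.3%, against 16.5% over the array). Ank3, the ankyrin that anchors sodium channels at the axon initial segment, rose in 2 probe sets, by 0.91 (SE 0.14, adjusted p = 0.00238) with no overlap and by 0.35 (SE 0.10, adjusted p = 0.0258). Pgrmc1, a membrane progesterone-binding protein, rose by 0.28 (SE 0.07, adjusted p = 0.0203). Nedd4, a ubiquitin ligase that marks membrane proteins for removal, fell by 0.32 (SE 0.07, adjusted p = 0.0116) in 1 probe set, and its other probe set was at -0.10 (adjusted p = 0.269).

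Among calcium channel partners 2 of 19 probe sets rose and 2 fell (21.1%, against 16.5% over the array). Rem2, a small GTPase that restrains calcium current, rose by 1.06 (adjusted p = 0.0177) in a probe set tested through its ketogenic values alone, while its other probe set was at -0.02. Nos1ap, an adaptor of neuronal nitric oxide synthase, rose by 0.41 (adjusted p = 0.0127). Dlg4, the scaffold PSD-95, fell by 0.75 (adjusted p = 0.00238) with no overlap in 1 probe set, and its 2 others were at -0.24 (adjusted p = 0.0521) and -0.13. Of 27 calcium release partner probe sets 2 rose and 1 fell (11.1%, against 16.5% over the array). Fkbp1b, which stabilizes the closed ryanodine receptor, was 1 that rose, by 0.64 (adjusted p = 0.0207). Among other sodium- or calcium-permeable channels 1 of 17 rose and 4 fell (29.4%, against 16.5% over the array). The 1 that rose, for Trpm7 (1.54), was tested through its ketogenic values alone, and the other Trpm7 probe set was at 0.06; it is named after its values were seen. Trpc1, a cation channel linked to receptor signalling, fell by 0.68 (SE 0.10, adjusted p = 0.0018) with no overlap. Cnga2, an olfactory cyclic nucleotide-gated channel, fell by 0.41 (adjusted p = 0.00803), and Scnn1g, a subunit of the epithelial sodium channel, by 0.33 (adjusted p = 0.0217). Of 11 probe sets for other chloride channels and chloride channel partners 0 were called by limma, and 1 had an unadjusted p under 0.05.

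**Figure D5:**
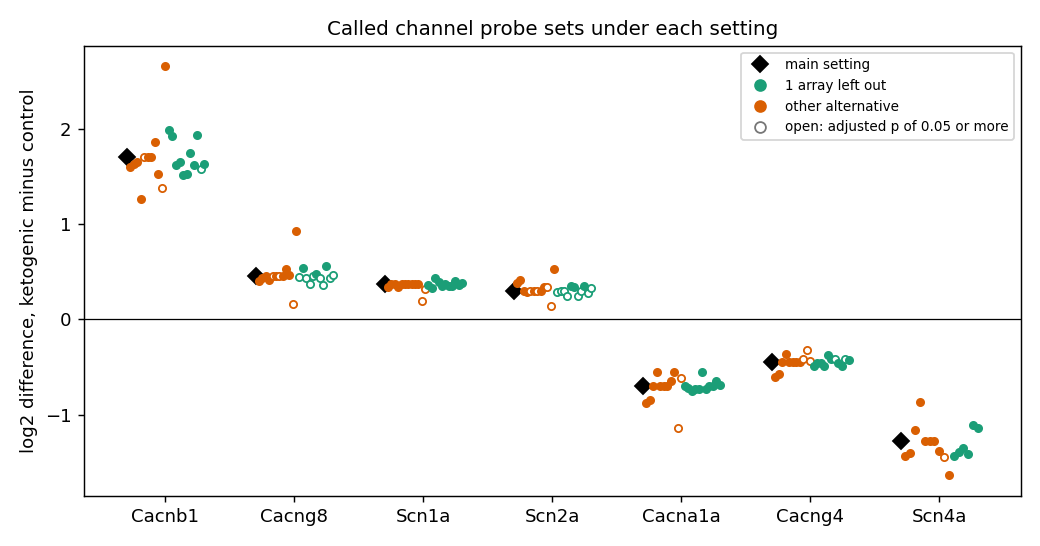
Log2 difference, ketogenic minus control (vertical axis), of the 7 called channel probe sets under every setting: the main one (black diamond), 1 array left out (green) and the other alternatives (orange). Open points have an adjusted p of 0.05 or more. No point crosses 0, and open points are most frequent for Cacng8 and Scn2a.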

How the data were processed

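Rat hippocampal total RNA was measured on 11 Affymetrix-type arrays. The deposited table holds 1 linear intensity per probe set and array; how the authors derived it from the image is not stated in the labels. Deposited intensities averaged 150.023 to 150.028 per array once 2% was trimmed from either end. Diet and replicate number came from the titles. Array medians spanned 0.238 on the log2 scale, above a limit of 0.1, so values were quantile normalized, floored at the 5th percentile (a signal of 5.02) and log2 transformed. The 57 control probe sets and the lowest 25% by mean were left out. The two-sided test was eBayes with a variance trend after lmFit (limma 3.58.1, R 4.3.3), with Benjamini-Hochberg adjustment over 11899 probe sets. The fit was tested on simulated data with independent noise, which cannot speak to the whole-array differences between the diets.

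Symbols came from the platform annotation, and the gene identifiers of all 68 members were found in a RefSeq table of GRCr8. Named were called members, the 2 with the smallest p per family, other probe sets of those genes and a fixed set known from epilepsy; the rest are named so that every member is accounted for. The members, lists and tests were chosen with earlier results of these data known. Of the fixed set, some genes, among them Cacna2d2 and Ryr3, were not analysed here. Alternatives covered the scaling, floor, filter, variance model, array weights, covariates, replicate block and each array left out. Partner and marker lists are counted in the report. Microglial markers had 2 of 6 probe sets called, both lower, and oligodendrocyte markers 3 of 12, all lower (7.87% lower over the array). No scan date or batch was used, and the number of arrays limits the precision.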

Additional observations from a re-analysis of the deposited data

Results flagged for a closer look

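In 7 of 112 groups of values, the ketogenic or the control arrays of 1 member, 1 array lay far from the rest, where chance gives about 1 in 20 groups, or 5.6. Ketogenic replicate 3 was that array for Ryr2, at 4.07 with the others at 6.52 to 6.67, and for Cacng2 in 1 of its 2 probe sets, at 3.85 with the others at 6.21 to 6.51. Ketogenic replicate 1 was far for Scn2b, at 3.22 with the others at 5.48 to 6.28, and for Scn10a, at 6.76 with the others at 5.99 to 6.16. Ketogenic replicate 4 was at 7.38 for Cacnb2 in 1 of 3 probe sets, with the others at 6.83 to 6.97. Control replicate 6 was at 6.99 for Cacna1a in the called probe set, with the others at 6.01 to 6.30, and control replicate 5 at 4.86 for Cacng7, with the others at 5.38 to 5.68. Of these genes Cacna1a was called, and it was called at -0.55 without control replicate 6.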

How the results depend on the processing

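The 7 called channel probe sets kept their direction under every alternative in which they were tested. The number of channel probe sets called, 4 higher and 3 lower, was 1 to 8 higher and 2 to 10 lower when 1 array was left out, with 2 higher and 2 lower without control replicate 3, 8 and 10 without ketogenic replicate 3 and 1 and 2 without ketogenic replicate 4. Over all probe sets, 1026 higher and 936 lower, leaving out 1 array gave 406 to 1583 higher and 391 to 1580 lower, and over the partner list 3 to 12 higher and 4 to 12 lower. With the values as deposited 10 channel, 14 partner and 1736 of all probe sets were lower. Centred on the 75th percentile 7 channel probe sets were higher and 8 lower, and 15 partners higher. Array weights gave 8 and 10 for the channels and 1600 and 1536 over all. At a threshold of 0.1, 8 channel probe sets were higher and 8 lower, 15 partners lower, and 1575 and 1495 over all. With no filter 1 channel probe set was higher and 4 were lower (7.35% of those tested, against 8.84% of all). With the lowest 50% left out 31 channel probe sets were tested, and 3 were higher and 0 lower (9.68%, against 20.6% of all). The called probe sets of Cacna1a, Cacng4 and Scn4a, lower in the main fit, were themselves left out there. With the 3 prime to 5 prime covariates 0 channel and 0 partner probe sets were called in either direction, and 0 higher and 6 lower over all. With the spike-in covariate 650 were higher over all, and 5 partners higher and 4 lower. The causes were not tested.

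With the replicate number as a block, without control replicate 6, 3 channel probe sets were called higher and 2 lower, 4 of them among the 7. Deviations of same-numbered arrays correlated at 0.00895 to 0.0771, and 4 of 10 arrays correlated best with their own number. These values do not settle whether the numbers pair samples, and the labels do not say. The main fit was unpaired.

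Signs turned only for members that were not called. With the values as deposited they were Cacna1c -0.13, Cacna1h -0.10, Cacnb4 -0.15, Cacng2 -0.0254 and -0.11, Clcn2 -0.10, Clic1 -0.11 and Itpr1 0.12. Centred on the 75th percentile they were Cacna1c -0.10, Cacna1h -0.0647, Cacnb4 -0.12, Cacng2 -0.0816, Clcn2 -0.07, Clic1 -0.0757 and Itpr1 0.15. With array weights they were Cacna2d1 0.0090, Cacng2 -0.0172, Clcn2 -0.0069 and Clic1 -0.0160, and with the replicate block Cacna2d1 0.01. With the 3 prime to 5 prime covariates they were Cacna1b -0.14, Cacna1c -0.26, Cacnb2 -0.0352 and -0.0570, Cacng2 -1.39, Cacng6 0.13, Clcn3 -0.0353, Clcn5 0.11, Clic1 -0.11, Clic4 0.28 and 0.03, Itpr1 0.15, Itpr3 -0.36, Scn2b 0.10, Scn3b -0.24 and Scn4b 0.0206. With the spike-in covariate they were Cacna1a 0.0757 (a probe set not called), Cacna2d1 0.14, Cacng2 -0.20, Cacng3 -0.14, Cacng7 0.31, Clcn2 -0.27, Clcn7 0.0732, Clic1 -0.10 and Scn8a 0.29.

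With 1 array left out, ranges that crossed 0 were Cacna1c -0.0024 to 0.17, Cacna1h -0.0082 to 0.084, Cacna2d1 -0.074 to 0.014, Cacnb4 -0.026 to 0.11, Cacng2 -0.039 to 0.051 and -0.078 to 0.59, Cacng6 -0.087 to 0.030, Clcn2 -0.069 to 0.17, Clcn5 -0.11 to 0.0065, Clic1 -0.053 to 0.11, Itpr1 -0.034 to 0.022, Scn2b -0.70 to 0.060 and Scn3b -0.0003 to 0.12.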
